A study of Oryza sativa with 6 samples.

Results

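The 10 genes described here encode 5 ascorbate peroxidases and 5 superoxide dismutases of rice, and they were chosen by identifier from the 39477 loci listed in the deposited table. They are APX1 (Os03g0285700), APX2 (Os07g0694700), APX4 (Os08g0549100), APX7 (Os04g0434800) and APX8 (Os02g0553200), the copper-zinc superoxide dismutases SodCc1 (Os03g0351500), SodCc2 (Os07g0665200) and sodCp (Os08g0561700), the manganese enzyme MnSOD (Os05g0323900) and the iron enzyme FeSOD (Os06g0143000). All 10 were found. They lie on 7 chromosomes, which the first digits of the identifiers give. Poly(A) RNA was sequenced from mature leaves of greenhouse rice at 60 days after germination, in 3 libraries of plants carrying a knockout of SRL1 (srl1-KO) and 3 libraries of controls labelled non-KO. Day and night temperatures were 30 and 25 °C. SRL1 (SEMI-ROLLED LEAF1) is known as a regulator of leaf rolling that is thought to be held at the cell surface by a lipid anchor. The labels give neither the rice cultivar nor the kind of lesion in the knockout, and they do not say whether the libraries of a genotype come from separate plants, so p-values measure the spread between these libraries, which may be technical.

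Superoxide dismutases convert superoxide into hydrogen peroxide and oxygen, and ascorbate peroxidases then reduce hydrogen peroxide to water with ascorbate as the electron donor. In leaves much of the superoxide arises in the light at photosystem I, so both families have members in the chloroplast as well as in the cytosol and in other organelles. The dismutases are named for the metal at the active site, and the iron and manganese classes share a protein fold that the copper-zinc class lacks.

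Levels are given in FPKM (fragments counted for a gene, divided by its length and by the size of the library), a per-length scale on which genes can be compared. A locus was tested when its mean over the 6 libraries was at least 1 FPKM, which held for 19556 loci and for all 10 genes. Each log2 change is the knockout mean less the control mean of log2(FPKM + 1), and a gene was called when its limma p, adjusted over all tested loci, was under 0.05. Leaves were measured in bulk, so fewer cells of a type and less RNA per cell cannot be told apart. Summed FPKM ran from 598611 to 628270 per library. Relative depth, read from barely detected loci, lay between 0.889 and 0.946 in 5 libraries when srl1-KO replicate 1 was set to 1, and absolute depth is unknown. SRL1 itself (Os07g0102300) measured 2.50, 2.70 and 3.30 FPKM in the controls against 1.62, 2.22 and 1.96 FPKM in the knockout, and it was not called (adjusted p = 0.107 by limma), except as lower with quantile normalization (log2 change -0.50, adjusted p = 0.0488 by limma). Transcript remained in every srl1-KO library, so the level of SRL1 does not settle the labels. Leaf genes were abundant. The antenna genes CAB1R and CAB2R and the Rubisco activase gene RCA, none called, summed to between 3010 and 5310 FPKM in the controls and between 4290 and 7830 FPKM in the knockout. CAB2R was higher in every srl1-KO than in every non-KO library (log2 change 1.13, adjusted p = 0.0523 by limma). Of all 7 mesophyll identifiers 0 rose and 1, without a name in the reference table, fell (log2 change -0.58, adjusted p = 0.0427 by limma). Of 2 silicon transporter genes known from roots, LSI2 was listed at 0 in all 6 libraries. LSI1, not called, was at 12.8 ± 5.54 FPKM in the controls and 12.5 ± 4.52 FPKM in the knockout (mean ± SD of 3 libraries). The 4 named markers of senescing leaves (SGR, NYC1, NOL and RCCR1) summed to between 226 and 240 FPKM in the controls and between 258 and 294 FPKM in the knockout. These sums did not overlap, but each of the 4 markers overlapped between genotypes, and none of the 4 was called. NYC1 made up most of the sum, at 198 ± 7.74 FPKM in the controls and 227 ± 29.3 FPKM in the knockout (mean ± SD of 3 libraries). A further identifier on that list, without a name in the reference table, rose 2.74-fold without overlap (log2 change 1.23, adjusted p = 0.0357 by limma). The named epidermal markers went different ways. ROC5 fell (log2 change -0.37, adjusted p = 0.0341 by limma). ROC4, whose identifier is uncertain, was higher in every srl1-KO than in every non-KO library and was not called (log2 change 0.55, adjusted p = 0.0513 by limma). Together ROC5 and ROC4 summed to between 38.9 and 47.8 FPKM in the controls and between 42.6 and 54.6 FPKM in the knockout. A further epidermal identifier, without a name in the reference table, fell without overlap (log2 change -0.93, adjusted p = 0.00796 by limma). The phloem marker SUT1 and the 1 tested of 4 markers of dividing cells were not called. The part of these markers in the results that follow was not tested.

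The copper-zinc superoxide dismutases stood higher in srl1-KO, by 1.96-fold to 2.73-fold in mean FPKM, and 2 of the 3 rose. The manganese and iron enzymes were not called. Among the ascorbate peroxidases APX1 rose and APX2 fell, in the same cellular compartment, and the other 3 were not called. In all, 3 of the 10 genes rose and 1 fell. Of all tested loci 27.2% were called, 15.3% as higher and 11.9% as lower in srl1-KO, and among the 9156 loci that averaged 10 FPKM or more, as all 10 genes did, 30.6% were called. The count of called genes is therefore close to the background of this comparison. The median log2 change was 0.084 over the 10 genes and 0.11 over all tested loci. The genotypes did not overlap at 7 of the 10 genes, against 47.1% of all tested loci.

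**Figure D1:**
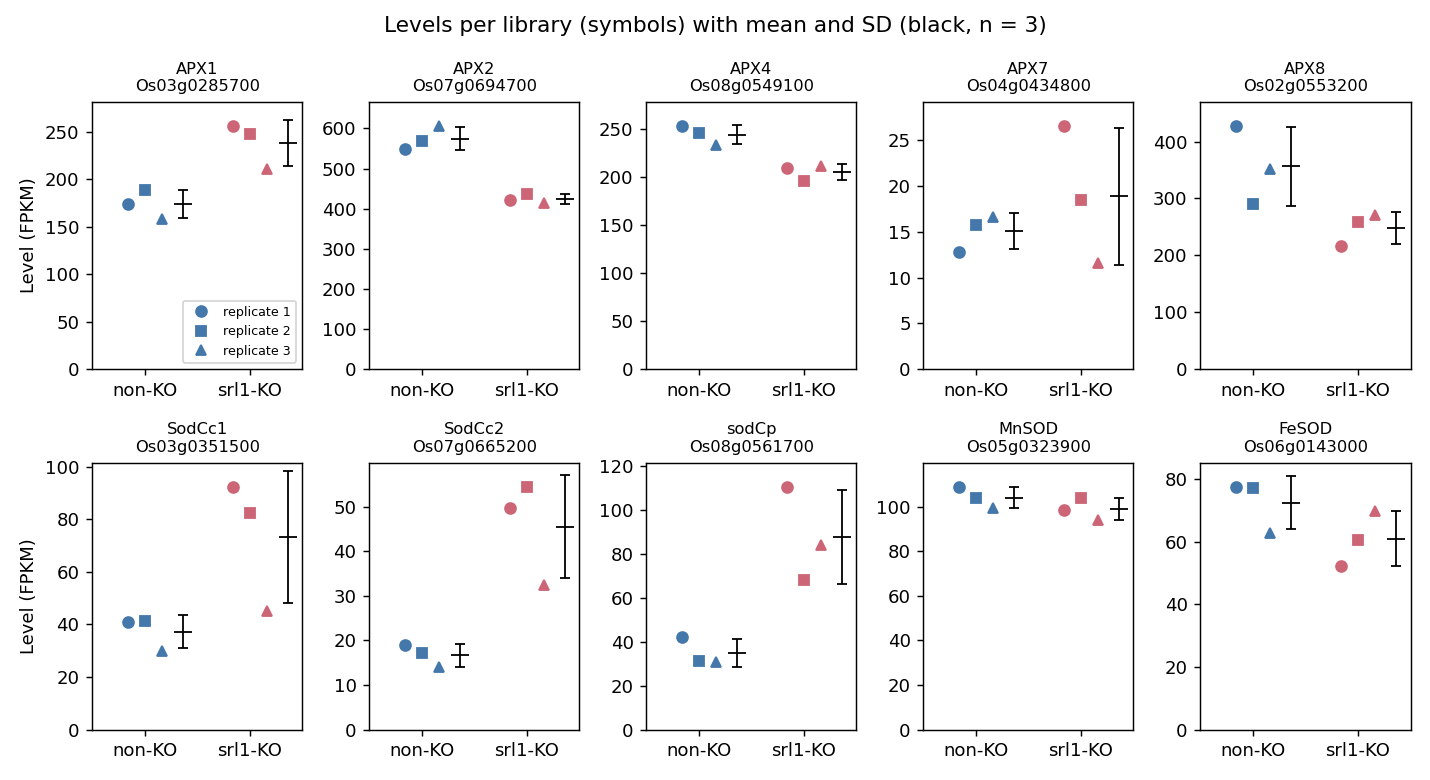
Level in FPKM (y axis, from 0, scaled per gene) of each gene in the non-KO (blue) and srl1-KO (red) libraries, where symbols mark the replicate number and the black marks give mean and SD over 3 libraries. For sodCp every srl1-KO library lies above 67 FPKM and every non-KO library below 43 FPKM, while the libraries of MnSOD overlap.

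SodCc2 is a cytosolic copper-zinc enzyme. Its level was 18.9, 17.1 and 14.0 FPKM in non-KO replicates 1, 2 and 3 and 49.6, 54.4 and 32.4 FPKM in the knockout replicates 1, 2 and 3. Every srl1-KO library lay above every non-KO library. The mean went from 16.6 ± 2.50 to 45.5 ± 11.6 FPKM (mean ± SD of 3 libraries), a 2.73-fold difference (log2 change 1.37, SE 0.22, adjusted p = 0.00561 by limma). This change exceeded that of 97.2% of tested loci.

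The plastid copper-zinc enzyme sodCp acts in the chloroplast stroma. Its level was 42.3, 31.4 and 30.7 FPKM in the controls and 110, 67.9 and 84.2 FPKM in the knockout, again without overlap and with the highest value in replicate 1 of each genotype. The mean went from 34.8 ± 6.48 to 87.5 ± 21.5 FPKM (mean ± SD of 3 libraries), a 2.51-fold difference (log2 change 1.29, SE 0.21, adjusted p = 0.00632 by limma). Both SodCc2 and sodCp kept their call under all 16 settings tried, including those that left out 1 library.

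SodCc1, the other cytosolic copper-zinc enzyme, was at 40.9, 41.2 and 29.9 FPKM in the controls and 92.3, 82.4 and 45.0 FPKM in the knockout. The genotypes did not overlap, but srl1-KO replicate 3 stood close to the non-KO libraries. The mean was 37.3 ± 6.42 FPKM in the controls and 73.2 ± 25.0 FPKM in the knockout (mean ± SD of 3 libraries), a 1.96-fold difference that was not called (log2 change 0.90, SE 0.28, 95% interval 0.22 to 1.58, adjusted p = 0.0574 by limma). Without srl1-KO replicate 3 it was called, with a log2 change of 1.22 (adjusted p = 0.00777 by limma). Among the srl1-KO libraries, replicate 3 was the lowest for SodCc1, SodCc2, MnSOD, APX1, APX2 and APX7, the highest for FeSOD, APX4 and APX8, and between the others for sodCp. Among the non-KO libraries, replicate 3 was likewise the lowest for SodCc1, SodCc2, MnSOD and APX1, and also for sodCp, FeSOD and APX4. That control library was the highest for APX2 and APX7 and between the others for APX8. Of the 4 named senescing-leaf markers, SGR (2.27 FPKM) and RCCR1 (13.4 FPKM) were lowest among the srl1-KO libraries in replicate 3, and NYC1 (260.2 FPKM) and NOL (18.4 FPKM) were highest there. The 3 named markers of secondary-wall cells summed to between 2.82 and 8.07 FPKM in the knockout and between 2.05 and 18.4 FPKM in the controls, and 0 of 3 was called (unadjusted limma p of CESA7 0.702). The part of these markers in the spread of the dismutases was not tested.

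MnSOD, the mitochondrial enzyme, had the smallest log2 change in size of the 10 genes, at -0.072, and at 0.083 with quantile normalization. Its level was 109, 104 and 99.5 FPKM in the controls and 98.6, 104 and 94.2 FPKM in the knockout, and the genotypes overlapped. On the log2 scale its 95% interval spanned -0.30 to 0.16, well short of the log2 changes of SodCc2 and sodCp.

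FeSOD belongs to the iron class, whose members in Arabidopsis act mainly in plastids; its name has no match in the reference table. It was at 77.5, 77.2 and 62.7 FPKM in the controls and 52.3, 60.5 and 69.9 FPKM in the knockout, with overlap between the genotypes. The means were 72.5 ± 8.43 and 60.9 ± 8.82 FPKM (mean ± SD of 3 libraries), and the gene was not called (log2 change -0.25, SE 0.15, 95% interval -0.60 to 0.10, adjusted p = 0.244 by limma).

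Among the 5 dismutases described here the balance of metals differed between genotypes in every library. Copper-zinc transcripts made up 35.4%, 33.1% and 31.5% of the summed FPKM of the 5 dismutases in non-KO replicates 1, 2 and 3, and 62.6%, 55.5% and 49.6% in srl1-KO replicates 1, 2 and 3. The share of MnSOD was 37.7% to 42% in non-KO and 24.4% to 28.9% in srl1-KO, while its level overlapped between genotypes. The summed level of the 5 dismutases was 288, 270 and 237 FPKM in the controls and 403, 369 and 326 FPKM in the knockout. Further identifiers listed as related to dismutases, without a name in the reference table, are outside these sums and shares. They averaged 41.7 and 65.7 FPKM in the controls and 80.0 and 64.1 FPKM in the knockout. The first rose (log2 change 0.93, adjusted p = 0.00141 by limma) and the other was not called.

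In the plastid, sodCp stood below FeSOD in all 3 non-KO libraries, with ratios of sodCp to FeSOD of 0.546, 0.407 and 0.490. It stood above FeSOD in all 3 srl1-KO libraries, at ratios of 2.11, 1.12 and 1.20. The plastid share of the 5 dismutases, sodCp and FeSOD together, overlapped between genotypes at 39.5% to 41.5% in non-KO and 34.8% to 47.3% in srl1-KO. The ratio of SodCc1 to SodCc2 in the cytosol was 2.16, 2.41 and 2.14 in non-KO and 1.86, 1.51 and 1.39 in srl1-KO. These shares and ratios describe the libraries and carry no test, since genes were grouped with their levels known.

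**Figure D2:**
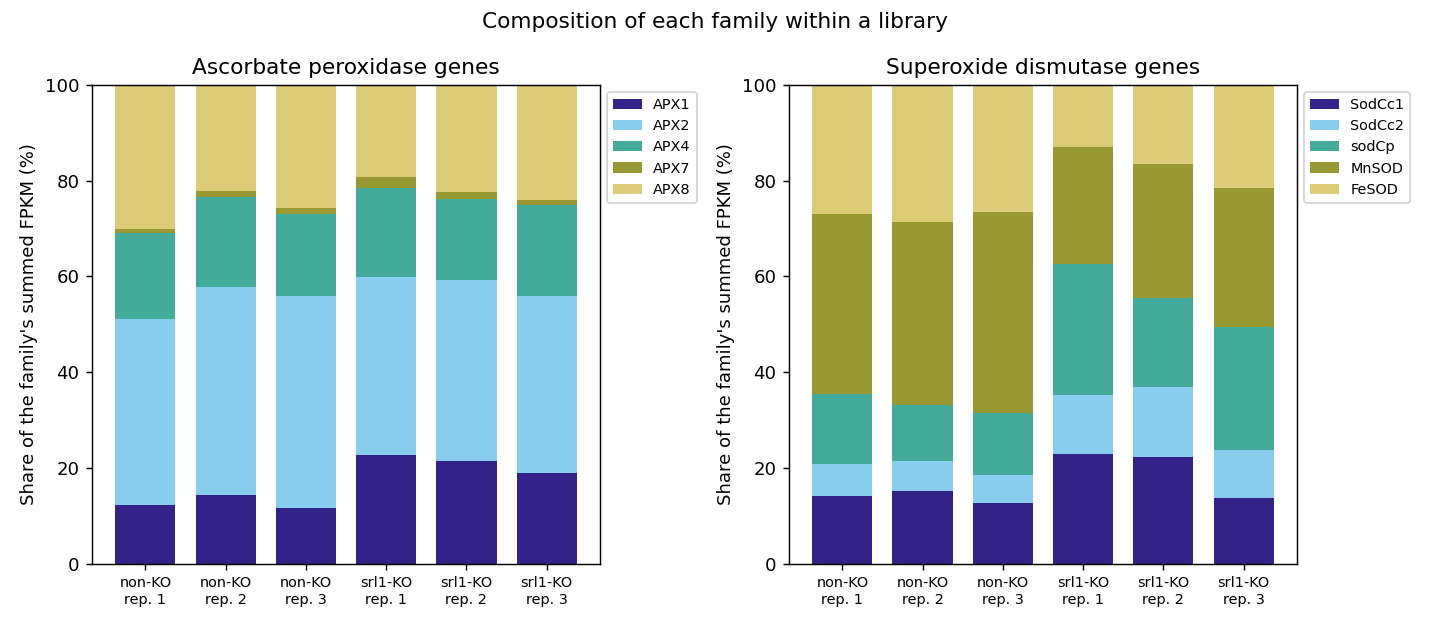
Share of the summed FPKM (y axis, percent) that each gene takes within the 5 ascorbate peroxidases (left) and the 5 superoxide dismutases (right), 1 bar per library. The copper-zinc share, the lower 3 segments on the right, runs from 31.5% to 35.4% in non-KO and from 49.6% to 62.6% in srl1-KO.

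APX1 and APX2 are the cytosolic ascorbate peroxidases, and APX1 rose while APX2 fell. APX2 was the most abundant of the 10 genes, at 550, 569 and 606 FPKM in the controls and 421, 438 and 414 FPKM in the knockout. Every srl1-KO library lay below every non-KO library, and the mean went from 575 ± 28.6 to 424 ± 12.0 FPKM (mean ± SD of 3 libraries), a 1.35-fold difference (log2 change -0.44, SE 0.11, adjusted p = 0.0327 by limma). APX1 was at 174, 189 and 159 FPKM in the controls and 256, 248 and 211 FPKM in the knockout. Here every srl1-KO library lay above every non-KO library, and the mean rose from 174 ± 15.1 to 238 ± 24.2 FPKM (mean ± SD of 3 libraries), a 1.37-fold difference (log2 change 0.45, SE 0.13, adjusted p = 0.0429 by limma).

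The ratio of APX2 to APX1 was 3.16, 3.01 and 3.82 in the non-KO libraries and 1.64, 1.77 and 1.97 in the srl1-KO libraries, without overlap. The sum of both genes changed less, with 724 to 764 FPKM in non-KO and 625 to 685 FPKM in the knockout. Both calls sat near the threshold. That of APX2 was lost when any 1 of the 6 libraries was left out (adjusted p from 0.0602 to 0.101 by limma). That of APX1 was lost without any library but srl1-KO replicate 3 (adjusted p from 0.0584 to 0.141 by limma), and with trimmed mean scale factors (log2 change 0.30, adjusted p = 0.145 by limma). Members of a close family share sequence, and no source used here says how fragments that match APX1 and APX2, or SodCc1 and SodCc2, were assigned, so the split within each pair is uncertain.

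APX8, the thylakoid-bound peroxidase of the chloroplast, had the second highest mean in both genotypes. It was at 427, 290 and 352 FPKM in the controls and 217, 258 and 270 FPKM in the knockout, without overlap. The mean was 356 ± 68.8 FPKM in the controls and 248 ± 27.9 FPKM in the knockout (mean ± SD of 3 libraries), a 1.43-fold difference that was not called (log2 change -0.51, SE 0.18, adjusted p = 0.0759 by limma). It was called without non-KO replicate 2 (log2 change -0.65, adjusted p = 0.0479 by limma) and with trimmed mean scale factors (log2 change -0.65, adjusted p = 0.0346 by limma).

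APX4, a peroxisomal enzyme, was at 253, 246 and 233 FPKM in the controls and 210, 196 and 211 FPKM in the knockout. The genotypes did not overlap, yet the difference of 1.19-fold was not called (log2 change -0.25, SE 0.10, adjusted p = 0.118 by limma), except with trimmed mean scale factors (log2 change -0.39, adjusted p = 0.0375 by limma). These factors moved the median log2 change of all tested loci from 0.11 to -0.016, and the values of APX1, APX4 and APX8 under them are to be read against that median.

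APX7, the stromal peroxidase, was the least abundant of the 10 genes in non-KO, at 12.8, 15.8 and 16.6 FPKM. In the knockout it went from 11.5 FPKM in replicate 3 through 18.5 FPKM in replicate 2 to 26.6 FPKM in replicate 1 and enclosed the non-KO range. Its 95% interval, from -0.43 to 0.92 on the log2 scale, allows a change in either direction, and without srl1-KO replicate 1 its log2 change was -0.032. The two-sided exact permutation test over the 6 libraries gave p = 0.1 for each of the 7 genes without overlap, the smallest p that this design allows, and p = 0.5, 0.3 and 0.2 for APX7, MnSOD and FeSOD.

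**Figure D3:**
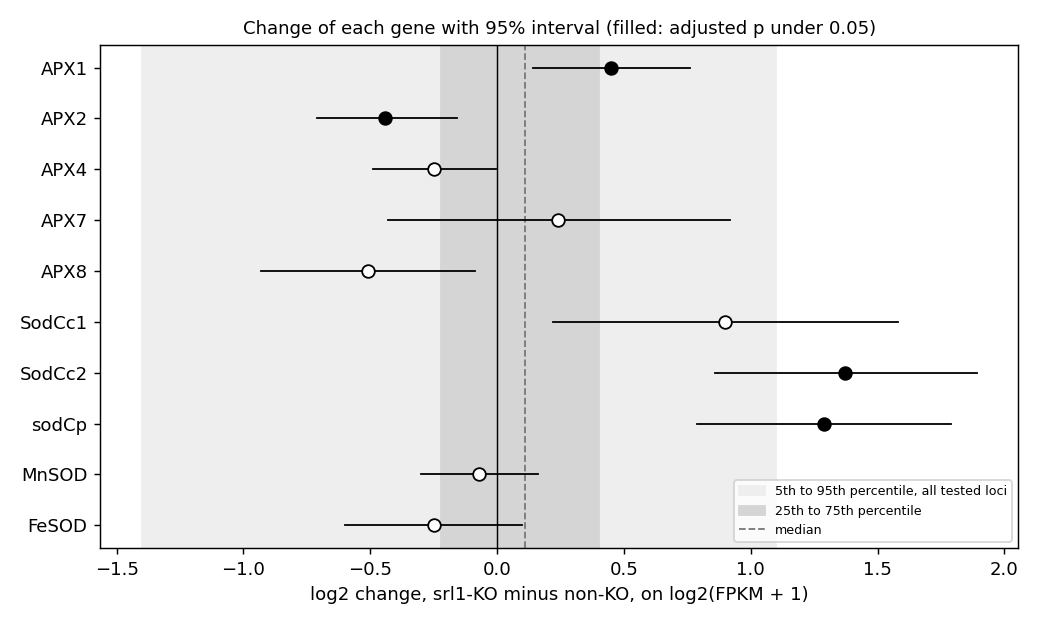
log2 change of each gene (x axis, knockout less control, log2(FPKM + 1) scale) with its 95% interval, filled where the adjusted p by limma is under 0.05, over the spread of all tested loci (grey bands and dashed median at 0.11). SodCc2 (1.37) and sodCp (1.29) lie beyond the 95th percentile of 1.1, whereas the changes of APX1 and APX2 are below 0.5 in size.

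The order of the levels differed between genotypes. In non-KO it ran APX2, APX8, APX4, APX1, MnSOD, FeSOD, SodCc1, sodCp, SodCc2 and APX7. Neighbours were separated beyond their ranges except for SodCc1 and sodCp and for SodCc2 and APX7. In srl1-KO APX2 kept the first place, while the ranges of APX8, APX1 and APX4 ran into each other between 196 and 270 FPKM. MnSOD, sodCp, SodCc1, FeSOD and SodCc2 followed, each overlapping with the next, and APX7 came last at 18.9 ± 7.52 FPKM (mean ± SD of 3 libraries). The summed level of the 5 peroxidases was 1417, 1310 and 1366 FPKM in the controls and 1130, 1158 and 1118 FPKM in the knockout, so that their sum was lower in every srl1-KO library while that of the dismutases was higher.

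Other genes of the antioxidant system were read from lists of 52 identifiers. For 16 of these the reference table holds a gene of that name on the chromosome of the identifier, and 15 of the 16 were tested. Of the 15, 3 rose, 1 fell and 11 were not called, with a median log2 change of -0.057. A further 33 identifiers had no name in the table, and of the 28 tested among them 3 rose and 6 fell. Both shares can be read against the 27.2% of all tested loci. Among the 28, 0 of 5 glutathione peroxidase identifiers rose and 2 fell (log2 change -1.98 and -0.99, adjusted p = 0.000369 and 0.0208 by limma). Of 3 for glutathione reductase 1 fell (log2 change -1.56, adjusted p = 0.0113 by limma) and 1 rose (0.42, adjusted p = 0.0477 by limma). Of 2 for dehydroascorbate reductase 0 rose and 1 fell (log2 change -0.63, adjusted p = 0.0323 by limma). A glutathione synthesis identifier rose (log2 change 0.40, adjusted p = 0.0368 by limma).

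CCS (Os04g0573200), which in Arabidopsis delivers copper to the copper-zinc dismutases, was at 6.61, 7.23 and 5.35 FPKM in the controls and 17.8, 32.3 and 11.4 FPKM in the knockout. All 3 srl1-KO libraries lay above the non-KO libraries, and the mean rose 3.21-fold (log2 change 1.43, SE 0.34, adjusted p = 0.0244 by limma). Leaving out srl1-KO replicate 1 (adjusted p = 0.0593 by limma) or any 1 of the controls (adjusted p from 0.0539 to 0.0696 by limma) ended the call. The table places CCS in the same order as APX3 and APX7 on chromosome 4 but not as ROC4, so the identifier of CCS or that of ROC4 is uncertain.

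Catalases remove hydrogen peroxide without ascorbate, mainly in peroxisomes. CATA (Os02g0115700) rose from 371 ± 51.8 to 1231 ± 327 FPKM (mean ± SD of 3 libraries), with a shift of 1.70 on the log2 scale (SE 0.23, adjusted p = 0.00306 by limma). CATB (Os06g0727200) rose from 27.6 ± 5.38 to 48.4 ± 2.54 FPKM, with a shift of 0.80 on the log2 scale (SE 0.15, adjusted p = 0.0104 by limma). A further listed catalase identifier, without a name in the reference table, had the highest control mean of the list. It was at 639 ± 221 FPKM in the controls and 712 ± 159 FPKM in the knockout, with overlap, and was not called (log2 change 0.19, adjusted p = 0.661 by limma).

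Among 3 peroxiredoxins, thiol-based peroxidases, PRXIIF (Os01g0266600), mitochondrial in Arabidopsis, fell from 60.1 ± 6.57 to 43.5 ± 4.22 FPKM (mean ± SD of 3 libraries), with a shift of -0.46 on the log2 scale (SE 0.12, adjusted p = 0.0373 by limma). It missed the threshold when knockout replicate 1 or 2, or control replicate 1 or 3, was left out (adjusted p from 0.0726 to 0.125 by limma) and under quantile normalization (0.101). The plastid 2-Cys peroxiredoxin BAS1 (Os02g0537700) was at 592 ± 121 FPKM in the controls and 429 ± 62.1 FPKM in the knockout and was not called (adjusted p = 0.129 by limma).

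Of the remaining ascorbate peroxidases, 2 were tested and neither was called. APX5 (Os12g0178200) was at 10.9 ± 0.402 FPKM in the controls and 10.4 ± 0.612 FPKM in the knockout, and APX6 (Os12g0178100) at 22.9 ± 1.22 and 22.4 ± 1.89 FPKM (mean ± SD of 3 libraries). The 95% interval of the APX6 log2 change ran from -0.28 to 0.22. APX3 (Os04g0223300) was near the detection floor, between 0 and 0.285 FPKM, and was not tested.

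None of the 4 ascorbate synthesis genes with a checked name was called by limma, and their unadjusted p ran from 0.208 to 0.408. The most abundant, the GDP-mannose epimerase gene GME1 (Os10g0417600), was at 62 ± 7.02 FPKM in the controls and 56.7 ± 9.01 FPKM in the knockout. GSH1-2 (Os07g0462000), of glutathione synthesis, was at 37.4 ± 4.48 and 35.8 ± 2.12 FPKM and was not called. RBOHB (Os01g0360200), an NADPH oxidase that produces superoxide outside the cell, was at 71.5 ± 10.1 FPKM in the controls and 98.8 ± 10.7 FPKM in the knockout without overlap and missed the threshold (adjusted p = 0.054 by limma). It was called without non-KO replicate 3 (log2 change 0.55) and with quantile normalization (log2 change 0.62) or equal sums (log2 change 0.48). Of 5 tested NADPH oxidase identifiers, RBOHB included, 0 rose and 2 fell. The 2 that fell, without a name in the reference table, had log2 changes of -1.82 and -1.25 (adjusted p = 0.00212 and 0.00466 by limma).

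**Figure D4:**
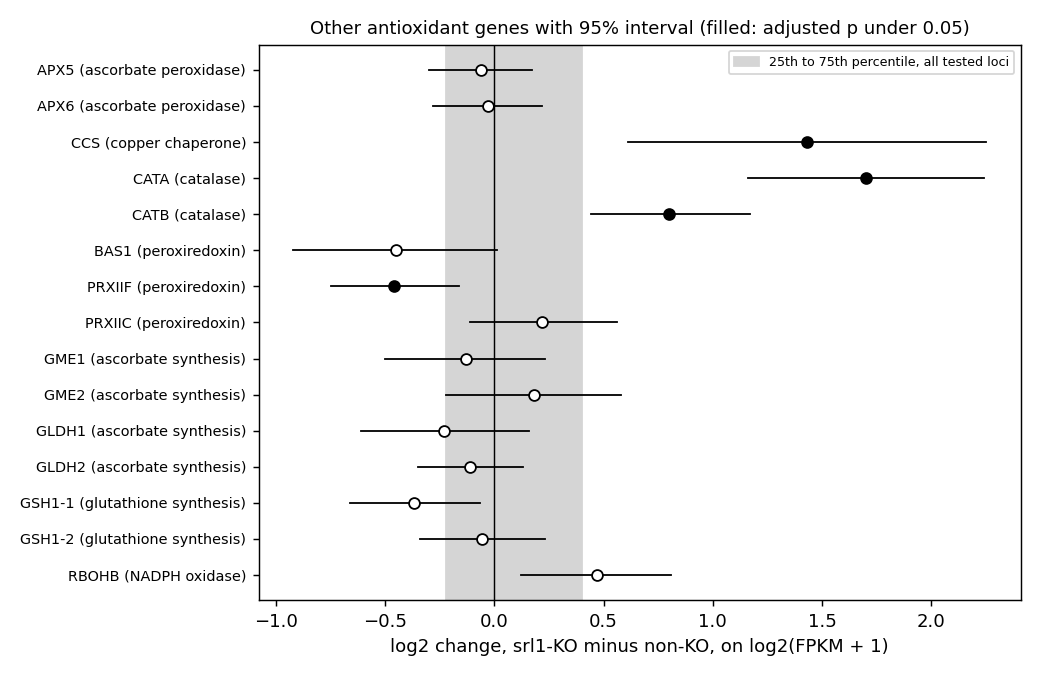
log2 change (x axis, knockout less control, log2(FPKM + 1) scale) with its 95% interval for the 15 tested antioxidant genes with a checked name outside the 10, filled where the adjusted p by limma is under 0.05, over the middle of all tested loci (grey). CATA, CCS and CATB lie to the right at 1.70, 1.43 and 0.80, and PRXIIF is the only filled point to the left.

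**Figure D5:**
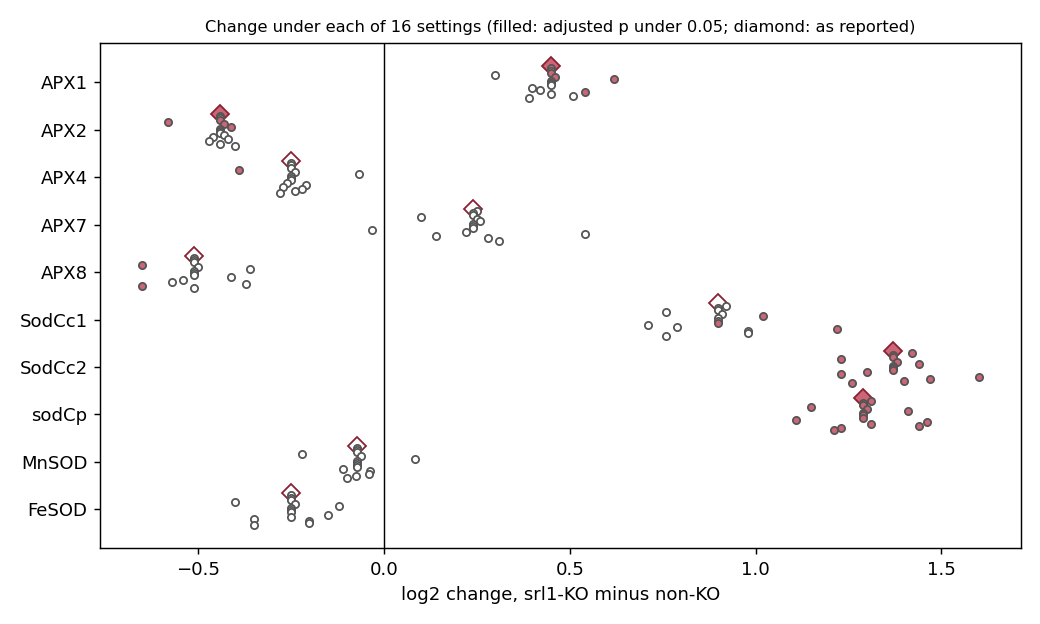
log2 change (x axis) of each of the 10 genes under each of 16 settings, the diamond being the value as reported and filled symbols having a limma adjusted p under 0.05. SodCc2 (1.23 to 1.60) and sodCp (1.11 to 1.46) are filled throughout, while APX1 and APX2 are filled in 8 settings each.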

How the data were processed

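The deposited table holds 1 FPKM value per locus and library, computed by the authors, with 1 library per column. IRGSP-1.0 is the build, and HISAT2 and DESeq2 are tools, listed in the submitters' processing notes, with no version or role; the FPKM software, gene models and strand setting are not known here. The FPKM values were taken as deposited and transformed to log2(FPKM + 1). The test was limma 3.58.1 (R 4.3.3, two-sided, prior variance following the mean), adjusted after Benjamini-Hochberg over 19556 loci averaging 1 FPKM or more, at a threshold of 0.05; the script was checked on simulated data. Replicate numbers were not used as pairs. Settings tried were a pseudocount of 0.1, no filter, a filter at 5 FPKM, 3 scalings, 2 variance models, the replicate block and each library left out. No column lacked a sample and no pair of libraries was identical. Absolute depth is unknown, so no counting intervals are given.

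The 10 genes and all lists were chosen with earlier results of these data known. List identifiers come from general knowledge. The RefSeq gene table (assembly ASM3414082v1, another build, used for names only) holds a matching name on the right chromosome for 9 of the 10 genes, FeSOD being the exception, for 16 of 52 pathway identifiers and for 19 of 26 markers; 3 pathway identifiers were dropped because the table has the name on other chromosomes only. Gene order on the chromosome matched for 71 of 72 pairs of checked names. Named list genes are those with the largest called change in each direction, or else the most abundant. APX3, APX5, CATB, BAS1, the markers and the identifiers described without a name were added after their values were seen.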

Additional observations from a re-analysis of the deposited data

How the results depend on the processing

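Across 16 settings, 2 to 4 of the 10 genes rose and 0 to 3 fell. Of 5321 called loci, 2995 rose; rises numbered 1850 with trimmed mean scale factors and 1765 under the replicate block. Leaving out 1 library gave 1330 to 2547 rises, and total calls ran from 2943 to 4649. Genes that fell numbered 0 with no filter and with the replicate block, 3 with trimmed mean scale factors (APX2, APX4 and APX8), and 0 to 1 without 1 library. Without 1 library APX7 ran from -0.032 (no srl1-KO replicate 1) to 0.54, APX6 from -0.067 to 0.038 and GSH1-2 from -0.13 to 0.033 on the log2 scale; with quantile normalization MnSOD was at 0.083, APX6 at 0.021, GME1 at 0.011 and GSH1-2 at 0.035. These turned sign and were never called, so their direction is not determined. With the replicate block, APX1 (adjusted p = 0.0717), APX2 (0.0984) and PRXIIF (0.082) lost the call and SodCc1 (0.0256) gained it; deviations of same-numbered libraries correlated at -0.054, 0.045 and 0.017, so the numbers are not shown to pair libraries. With no filter APX1 (0.0659) and APX2 (0.09) lost the call, and with quantile normalization SodCc1 (0.0417) gained it. The causes of these differences between settings were not tested. Unknown depth limits any statement on APX3.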
